A study of Mus musculus with 20 samples.

Results

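The 9 genes described here carry, sense, make and remove retinoic acid in cells. They are the binding proteins Crabp1 and Crabp2, the nuclear receptors Rara, Rarb and Rarg, the degrading enzymes Cyp26a1 and Cyp26b1, the synthesizing enzyme Aldh1a2 and the retinaldehyde reductase Dhrs3. They were taken by name, not by their values, from the 24421 gene rows of the deposited count tables. All 9 passed the filter on low counts that left 14792 genes for testing.

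The 20 total RNA libraries came from mouse embryonic stem cells differentiated into motor neurons. The labels call the NIL cells spinal and the NIP cells cranial motor neurons. Cyclopiazonic acid (CPA), a blocker of the calcium pump of the endoplasmic reticulum, was added at 20 µM to day 2 neurons to cause stress in that organelle. Each line has 5 groups of 2 libraries: untreated at 0 h, untreated at 12 h, CPA at 12 h, untreated at 36 h and CPA at 36 h. NIL and NIP are known from published work as programmed lines in which inducible Ngn2 and Isl1 are combined with Lhx3 or with Phox2a, but the labels used here do not describe the transgenes. The cultures were thus made to give neurons, though markers of other cells were present too, as given below. They were kept in a medium with fetal serum, B27 and growth factors. The labels name neither retinoic acid nor retinol in that medium, and some versions of B27 contain a vitamin A ester. The titles and the extraction text give 12 and 36 h, whereas the treatment and design texts give 6 and 12 h, and the titles are followed here. No label says whether replicates 1 and 2 were separate cultures, and the spread behind every p-value here is that between these libraries, which may be technical.

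Retinoic acid is a small lipid made from vitamin A. Retinol is oxidized to retinaldehyde and then, by enzymes such as Aldh1a2, to retinoic acid, while Dhrs3 turns retinaldehyde back into retinol. Inside the cell Crabp1 and Crabp2 bind retinoic acid, Crabp2 passes it to the receptors, which act in pairs with retinoid X receptors at paired half-sites in DNA, and Cyp26 enzymes break it down. In the embryo this pathway sets hindbrain and spinal cord positions through Hox genes and shapes which motor neurons form. Rarb and Cyp26a1 are themselves textbook targets that the receptors switch on, so their levels are often read beside those of the enzymes.

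Total counts over genes ran from 7996454 to 30321152 per library, with a median of 19797857.5, and the ribosomal transcript Rn45s took 5.18% to 38.6% of them. The highest shares of Rn45s belonged to the NIP 36 h untreated replicate 1 and the NIL 36 h CPA replicate 2 libraries. Levels below are CPM, the count scaled to library size with edgeR's trimmed-mean factors. Lhx3 stood at 115 to 166 CPM in NIL and 0 to 0.325 in NIP, and Mnx1 at 35.8 to 70.6 in NIL and 0.0929 to 0.673 in NIP. Phox2a stood at 0.0839 to 3.31 CPM in NIL and 56.9 to 322 in NIP, which follows the line labels. A list of 10 motor neuron markers summed to between 415 and 1159 CPM in NIL and between 1144 and 1615 in NIP. That sum, led by Prph at 36.6 to 795 CPM, includes Lhx3 and Mnx1, so it does not count motor neurons. Hspa5, the main chaperone of the stressed organelle, stood at 305 to 693 CPM without CPA and 1250 to 4480 with it.

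Rarb and Cyp26a1 were the members whose start regions held a paired half-site, so 150 bases of each are shown first. The search covered 250 bases before to 50 after each RefSeq start site (GRCm38.p6), on both strands. It looked for a half-site spelled AGGTCA, or GGGTCA, or AGTTCA, or GGTTCA, and for direct repeats of these with 1, 2 or 5 bases between them. RefSeq start regions were matched for 8 of 9 members, all but Crabp2. The sequences read 5′ to 3′ along the gene and end at the base before the start site, and the capitals mark the direct repeat with 5 bases between its half-sites.
Rarb start region (chr14:16575477-16575626, minus strand): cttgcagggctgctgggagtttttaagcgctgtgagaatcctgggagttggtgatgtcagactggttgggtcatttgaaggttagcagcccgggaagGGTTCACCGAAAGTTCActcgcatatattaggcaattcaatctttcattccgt
Cyp26a1 start region (chr19:37697658-37697807, plus strand): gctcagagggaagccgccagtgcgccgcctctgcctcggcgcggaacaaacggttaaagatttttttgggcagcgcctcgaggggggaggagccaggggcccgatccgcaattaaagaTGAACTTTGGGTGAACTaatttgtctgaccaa

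The Rarb repeat ran from base -53 to base -37 before the start site, on the gene's own strand. That start site, at base 16575476, lies inside the Rarb gene model, which extends upstream to base 16819156. Counts per gene do not tell which start was used. The Cyp26a1 repeat ran from base -32 to base -16 on the opposite strand, where it reads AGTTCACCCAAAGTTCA. Repeats of this kind were present in 32 of 32851 RefSeq start regions (0.0974%), against 0.268% for 2 bases between and 0.222% for 1 base. Single half-sites were present in 43.7% of start regions and, among the members, in those of Rara, Rarb, Rarg and Cyp26a1, with any half-site inside a repeat counted too. No repeat of the 3 spacings was found in the searched windows of Crabp1, Rara, Rarg, Cyp26b1, Aldh1a2 or Dhrs3, which says only that these letters are not in those windows.

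**Figure D1:**
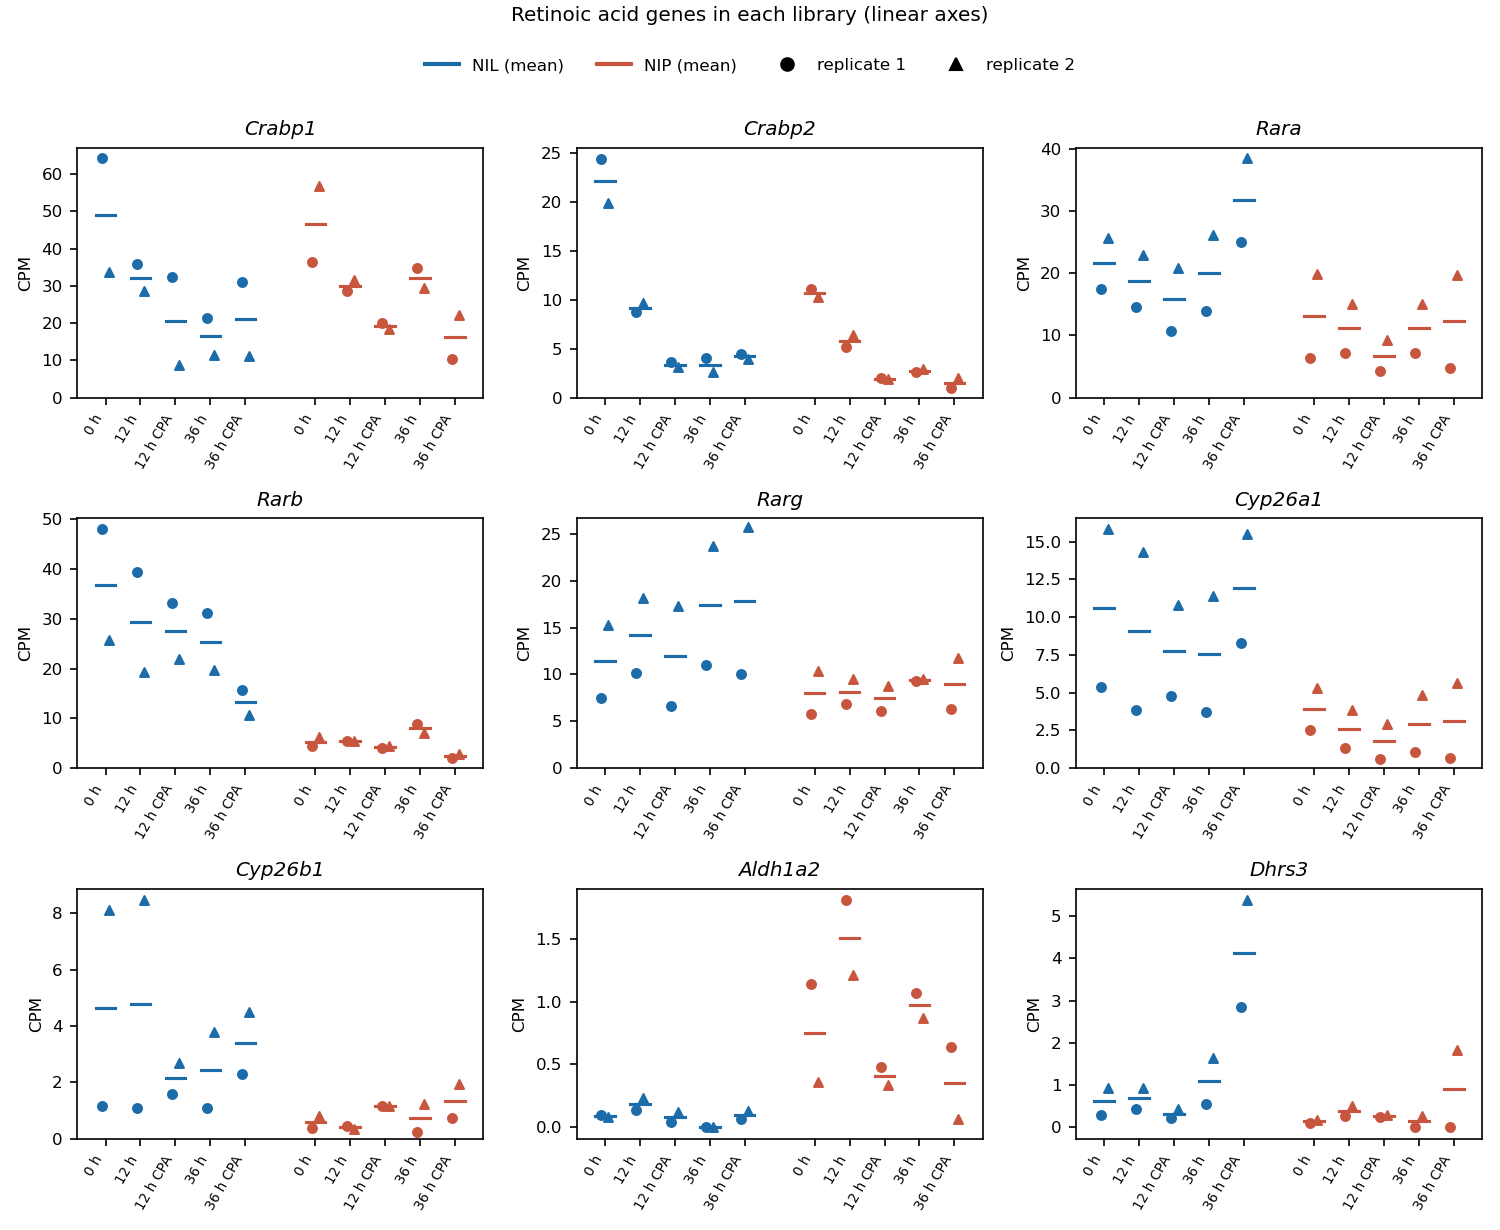
Level of each of the 9 genes in every library, in CPM on linear axes (circles, replicate 1; triangles, replicate 2; bars, group means; blue, NIL; red, NIP). All 10 NIP libraries lie below all 10 NIL libraries for Rarb, and Crabp2 is highest at 0 h in both lines.

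Of the 9 genes, 8 differed between the lines when the 5 conditions were averaged: 7 were lower in NIP and Aldh1a2 was higher. The lower genes were Crabp2, all of the receptors, both Cyp26 enzymes and Dhrs3. The background is high in that comparison, since 49.5% of all genes tested passed it. The median member difference was -0.98 on the log2 scale, against 0.01 over all genes. In single conditions fewer members passed, with 3, 2 and 2 at 0, 12 and 36 h untreated, where 12.5%, 12% and 11.6% of all genes passed. With CPA, 1 member passed at 12 h and 2 at 36 h, where 10.2% and 16.9% of all genes passed. With the replicate number as a block these 5 counts became 6, 6, 6, 3 and 6, while the shares of all genes rose to 26.3%, 27.9%, 28.8%, 26.7% and 37.6%. All calls use edgeR's quasi-likelihood test with Benjamini-Hochberg adjustment over all genes tested and a threshold of 0.05.

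**Figure D2:**
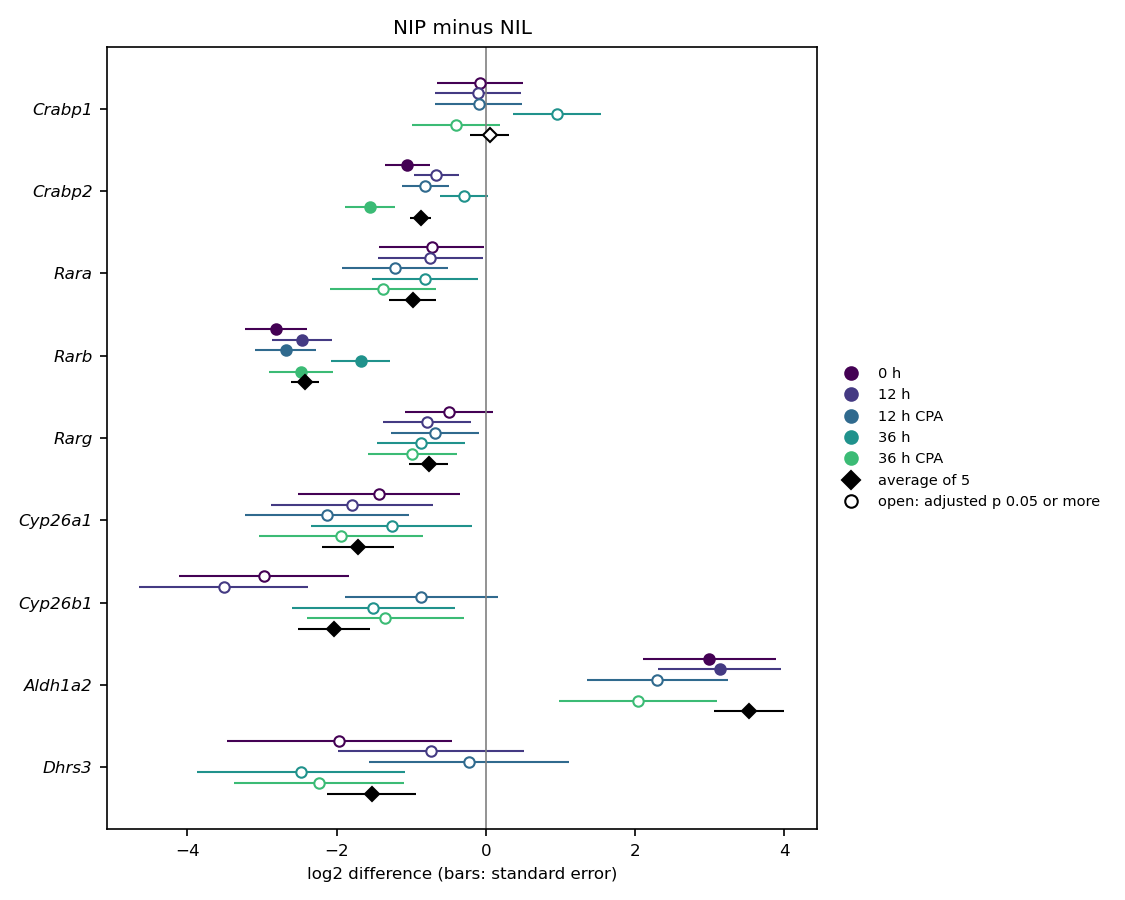
Difference between the lines for each gene, NIP minus NIL on the log2 scale with its standard error, in each of 5 conditions (circles) and averaged (diamonds); filled symbols passed an adjusted p of 0.05. Rarb is filled in every condition, and only Aldh1a2 has filled symbols to the right. The 36 h untreated value of Aldh1a2 is left out because NIL had no count.

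Crabp1, which binds retinoic acid in the cytoplasm, was the most abundant member for its length, with a mean of 35.4 CPM per kilobase over 802 exon bases (chr9:54764748-54773110, plus strand). Crabp1 in NIL stood, in replicates 1 and 2, at 64.4 and 33.7 CPM at 0 h, 35.9 and 28.6 at 12 h, 32.3 and 8.64 at 12 h with CPA, 21.4 and 11.5 at 36 h, and 31.1 and 11.2 at 36 h with CPA. Crabp1 in NIP stood at 36.3 and 56.9 CPM at 0 h, 28.5 and 31.6 at 12 h, 19.9 and 18.5 at 12 h with CPA, 34.8 and 29.5 at 36 h, and 10.3 and 22.2 at 36 h with CPA. The lines overlapped in every condition except 36 h untreated, and the averaged line difference was 0.05 ± 0.26 (log2, standard error, adjusted p = 0.881). Replicates disagreed in direction: NIP was above NIL in 1 of 5 conditions in replicate 1 and in 5 of 5 in replicate 2. Crabp1 passed none of the 21 comparisons with edgeR. In untreated cells from 0 h to 36 h it changed by -1.05 ± 0.42, with an adjusted p of 0.251, and all 4 within-replicate pairs were lower at 36 h.

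Crabp2, the partner that delivers retinoic acid to its receptors, was the member that changed along every axis of the design (chr3:87948666-87953376, plus strand). Crabp2 in NIL stood, in replicates 1 and 2, at 24.4 and 19.9 CPM at 0 h, 8.73 and 9.63 at 12 h, 3.65 and 3.11 at 12 h with CPA, 4.05 and 2.63 at 36 h, and 4.5 and 3.98 at 36 h with CPA. Crabp2 in NIP stood at 11.1 and 10.3 CPM at 0 h, 5.22 and 6.36 at 12 h, 1.97 and 1.89 at 12 h with CPA, 2.62 and 2.89 at 36 h, and 0.931 and 2.02 at 36 h with CPA. Within each line the 0 h libraries were highest and the untreated 12 h libraries came next, without overlap. In NIL the 36 h untreated libraries overlapped with both CPA groups, and in NIP the 36 h untreated libraries lay above both CPA groups.

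Without CPA, Crabp2 fell from 0 h to 36 h by 2.71 ± 0.32 (log2) in NIL and by 1.95 ± 0.32 in NIP, with adjusted p of 0.0142 and 0.015. It was the only member of 9 to pass in each, where 0.027% and 1.29% of all genes passed, and the single member to pass the average over lines (1.47% of genes). That averaged fall was 5.02-fold, at -2.33 ± 0.23 and an adjusted p of 0.000538. At 12 h the fall was 1.27 ± 0.30 in NIL and 0.88 ± 0.30 in NIP. Neither passed edgeR's test, in which 0% of all genes passed in either line. Of the 9 members only Crabp2 had an unadjusted p under 0.05 there, in each line, and DESeq2 called 0. Leaving out any of the 4 libraries compared ended the 36 h call in either line (adjusted p from 0.0563 to 0.186), as did leaving out NIP 0 h replicate 1 in NIL (0.0531). The averaged call held in all 20 leave-outs (at most 0.0148). The call in NIL was also lost with library totals only (0.112) and when only NIL libraries were fitted (0.213), and that in NIP without both libraries of high Rn45s share (0.194).

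CPA lowered Crabp2 at 12 h in both lines, by 1.44 ± 0.31 in NIL and 1.58 ± 0.32 in NIP (adjusted p = 0.0288 and 0.0127). These are falls of 2.7-fold and 3-fold, and the treated and untreated libraries did not overlap. Crabp2 was the single member to pass in each, where 2.21% and 4.71% of all genes passed. At 36 h the change was 0.33 ± 0.32 in NIL, with overlapping libraries, and -0.93 ± 0.33 in NIP, without overlap, and neither passed (adjusted p = 0.608 and 0.201). The difference between the 36 h and 12 h responses in NIL was 1.76 ± 0.44, with an unadjusted p of 0.00144 and an adjusted p of 0.856. The averaged CPA change was -0.91 ± 0.16, with an adjusted p of 0.00144 that held in all 27 alternative fits. Each single-line call at 12 h was lost when any of its 4 libraries was left out (adjusted p from 0.0613 to 0.263). The NIL call was also lost without NIP 0 h replicate 1 (0.0526) or NIP 36 h untreated replicate 1 (0.0583), and when only NIL libraries were fitted (0.0875). With library totals only, both were lost (0.228 in NIL and 0.0773 in NIP).

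Crabp2 was lower in NIP in 9 of 10 within-replicate pairs. The averaged line difference was -0.87 ± 0.14, a 1.83-fold lower level, with an adjusted p of 0.000185. It passed at 0 h, at -1.05 ± 0.30 (adjusted p = 0.0344), and at 36 h with CPA, at -1.55 ± 0.33 (0.00612). Leaving out any 1 of the 4 libraries at 0 h ended the first call (0.0566 to 0.186), as did library totals only (0.115), and leaving out NIP 36 h CPA replicate 1 ended the second, at -1.13 and 0.0576.

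Rara, the most widely expressed of the retinoic acid receptors, was lower in NIP in 10 of 10 within-replicate pairs (chr11:98927818-98974942, plus strand). Rara in NIL stood, in replicates 1 and 2, at 17.4 and 25.7 CPM at 0 h, 14.5 and 23 at 12 h, 10.7 and 20.9 at 12 h with CPA, 13.9 and 26.1 at 36 h, and 25 and 38.5 at 36 h with CPA. Rara in NIP stood at 6.35 and 19.9 CPM at 0 h, 7.23 and 15.1 at 12 h, 4.32 and 9.18 at 12 h with CPA, 7.15 and 15.1 at 36 h, and 4.78 and 19.7 at 36 h with CPA. Replicate 2 exceeded replicate 1 in all 10 groups. The lines overlapped in the untreated conditions and separated in both CPA conditions. The averaged line difference was -0.98 ± 0.32, a 1.97-fold lower level, with an adjusted p of 0.0201. No single condition passed without the block, and all 5 passed with the replicate number as a block, where the adjusted p ran from 0.000288 to 0.0326. Without both libraries of high Rn45s share the averaged call was lost, at -0.85 and an adjusted p of 0.0751.

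Rarb, the receptor whose searched start region holds the repeat shown above, had the widest and steadiest gap of the receptors (chr14:16430839-16819156, minus strand). Rarb in NIL stood, in replicates 1 and 2, at 48 and 25.7 CPM at 0 h, 39.5 and 19.4 at 12 h, 33.2 and 21.9 at 12 h with CPA, 31.1 and 19.7 at 36 h, and 15.8 and 10.7 at 36 h with CPA. Rarb in NIP stood at 4.34 and 6.23 CPM at 0 h, 5.39 and 5.34 at 12 h, 4.08 and 4.49 at 12 h with CPA, 8.93 and 7.11 at 36 h, and 1.99 and 2.83 at 36 h with CPA. Its lowest NIL library, at 10.7 CPM, lay above its highest NIP library, at 8.93. In both lines the 36 h CPA libraries were the lowest of all, and in NIP the 36 h untreated libraries were the highest.

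The averaged line difference of Rarb was -2.42 ± 0.18, a 5.36-fold lower level in NIP, with an adjusted p of 1.73e-07. It was -2.81 ± 0.41 at 0 h, -2.46 ± 0.40 at 12 h and -1.68 ± 0.40 at 36 h, with adjusted p of 0.000491, 0.00119 and 0.0144. With CPA it was -2.68 ± 0.41 at 12 h and -2.48 ± 0.42 at 36 h, with adjusted p of 0.000823 and 0.00148. Rarb was thus the single member called in all 5 conditions. The 36 h untreated call was lost on leaving out NIL 36 h untreated replicate 1 (-1.31, adjusted p = 0.1), NIP 36 h untreated replicate 1 (-1.83, 0.0736) or NIP 36 h untreated replicate 2 (-1.52, 0.126), and the other 4 held in all 20 leave-outs. The Rarb gene model shares 1793 of its 3392 exon bases with Top2b, a topoisomerase gene on the opposite strand, and an antisense model, Gm48162, overlaps it as well. The counting strand is not given in the sources used here, so reads of overlapping genes may not be told apart. Top2b stood at 133 to 636 CPM in NIL and 91.4 to 356 in NIP, and its averaged line difference was -0.58 ± 0.22 (adjusted p = 0.0441).

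CPA lowered Rarb on average by 0.78 ± 0.20, with an adjusted p of 0.0137, and in 7 of 8 within-replicate pairs. The averaged CPA change of Top2b, which shares exon bases with Rarb, was -0.43 ± 0.25 (adjusted p = 0.248). The 36 h changes were -0.94 ± 0.39 in NIL and -1.74 ± 0.42 in NIP, with adjusted p of 0.238 and 0.0489. Treated and untreated libraries did not overlap at 36 h in either line. Rarb was the single member to pass in NIP at 36 h, where 2.33% of all genes passed. The NIP call lies close to the threshold and was lost in 16 of 20 leave-outs (adjusted p up to 0.318), while the block put it at 0.00549. In NIL at 36 h, 0 members passed edgeR's test, where 0.953% of all genes did, 1 member (Rarb) had an unadjusted p under 0.05 and DESeq2 called 0. The block called Rarb there too, at -0.93 and 0.0457. At 12 h the changes were -0.10 ± 0.38 in NIL and -0.32 ± 0.40 in NIP, and neither passed. The averaged call was lost with library totals only (-0.69, adjusted p = 0.0715) and without both libraries of high Rn45s share (-0.66, 0.0858).

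Rarg, the receptor known in early embryonic and skeletal tissue, was lower in NIP in 10 of 10 within-replicate pairs (chr15:102234938-102257517, minus strand). Rarg in NIL stood, in replicates 1 and 2, at 7.49 and 15.3 CPM at 0 h, 10.1 and 18.2 at 12 h, 6.63 and 17.3 at 12 h with CPA, 11 and 23.7 at 36 h, and 10 and 25.7 at 36 h with CPA. Rarg in NIP stood at 5.75 and 10.4 CPM at 0 h, 6.8 and 9.52 at 12 h, 6.14 and 8.72 at 12 h with CPA, 9.29 and 9.54 at 36 h, and 6.26 and 11.7 at 36 h with CPA. The lines overlapped at 0 h and in both CPA conditions and were apart, by narrow margins, at 12 h and 36 h untreated. The averaged difference was -0.76 ± 0.26, a 1.7-fold lower level, with an adjusted p of 0.0277. That call was lost in 8 of 20 leave-outs, those of NIP 0 h, 12 h untreated and 36 h CPA replicate 1 and of all 5 NIL replicate 2 libraries, with an adjusted p of at most 0.0767, and without both libraries of high Rn45s share (0.0968). Over all 20 leave-outs the difference ran from -0.89 to -0.59. No single condition passed without the block, and 3 passed with it: 12 h untreated at -0.75 (adjusted p = 0.039), 36 h untreated at -0.80 (0.0326) and 36 h with CPA at -0.92 (0.0105).

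Cyp26a1, the main enzyme that oxidizes retinoic acid for removal and the second gene with the repeat, was lower in NIP in 10 of 10 within-replicate pairs (chr19:37697798-37701536, plus strand). In NIL it stood, in replicates 1 and 2, at 5.39 and 15.8 CPM at 0 h, 3.87 and 14.3 at 12 h, 4.78 and 10.8 at 12 h with CPA, 3.73 and 11.4 at 36 h, and 8.31 and 15.5 at 36 h with CPA. In NIP it stood at 2.55 and 5.32 CPM at 0 h, 1.31 and 3.85 at 12 h, 0.624 and 2.89 at 12 h with CPA, 1.07 and 4.81 at 36 h, and 0.635 and 5.66 at 36 h with CPA. The lines overlapped at 36 h untreated alone, by the NIL replicate 1 library, and replicate 2 was above replicate 1 in all 10 groups. The averaged difference was -1.71 ± 0.49, a 3.27-fold lower level, with an adjusted p of 0.0102 that stayed under 0.05 in all 27 alternative fits. No single condition passed without the block, and all 5 passed with it (adjusted p from 0.000132 to 0.0126).

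Cyp26b1, the second removal enzyme, was lower in NIP in 10 of 10 within-replicate pairs as well (chr6:84571414-84593908, minus strand). In NIL it stood, in replicates 1 and 2, at 1.15 and 8.13 CPM at 0 h, 1.09 and 8.47 at 12 h, 1.59 and 2.67 at 12 h with CPA, 1.09 and 3.79 at 36 h, and 2.28 and 4.49 at 36 h with CPA. In NIP it stood at 0.38 and 0.812 CPM at 0 h, 0.46 and 0.325 at 12 h, 1.15 and 1.17 at 12 h with CPA, 0.238 and 1.24 at 36 h, and 0.719 and 1.95 at 36 h with CPA. The lines overlapped at 36 h untreated alone. The averaged difference was -2.04 ± 0.49, a 4.11-fold lower level (adjusted p = 0.00345), and it passed in all 27 alternative fits. With the block the 0 h and 12 h untreated conditions passed too, at -2.62 and -2.996 with adjusted p of 0.0127 and 0.00423. Cyp26b1 was above its untreated level in 7 of 8 within-replicate pairs with CPA, but the averaged change was 0.40 ± 0.53 with an adjusted p of 0.634.

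Dhrs3, which returns retinaldehyde to retinol, was scarce, with 4 to 87 counts over a group (chr4:144892827-144928209, plus strand). Dhrs3 in NIL stood, in replicates 1 and 2, at 0.287 and 0.931 CPM at 0 h, 0.441 and 0.929 at 12 h, 0.21 and 0.435 at 12 h with CPA, 0.543 and 1.65 at 36 h, and 2.85 and 5.39 at 36 h with CPA. Dhrs3 in NIP stood at 0.108 and 0.18 CPM at 0 h, 0.263 and 0.511 at 12 h, 0.24 and 0.294 at 12 h with CPA, 0 and 0.275 at 36 h, and 0 and 1.82 at 36 h with CPA. Both NIL libraries with CPA at 36 h stood above all other libraries, and 2 NIP libraries had no count. The averaged line difference was -1.53 ± 0.60, a 2.88-fold lower level in NIP, with an adjusted p of 0.0477. This call held in 7 of 20 leave-outs and 12 of 27 alternative fits, with a largest adjusted p of 0.098 among the leave-outs. No single condition passed without the block, and with it 36 h passed both untreated, at -2.73 (adjusted p = 0.0382), and with CPA, at -2.65 (0.00475). The CPA change in NIL at 36 h was 1.97 ± 1.13 (adjusted p = 0.387), and with the block it was 2.06 with an adjusted p of 0.0357. In NIP at 36 h the change was 2.21 ± 1.39, with overlapping libraries and an adjusted p of 0.553.

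Aldh1a2, the enzyme that makes retinoic acid in the mesoderm beside the early spinal cord and in limb-level motor neurons, was the one member that passed as higher in NIP (chr9:71215789-71296243, plus strand). Aldh1a2 in NIL stood, in replicates 1 and 2, at 0.0956 and 0.0847 CPM at 0 h, 0.136 and 0.232 at 12 h, 0.042 and 0.124 at 12 h with CPA, 0 and 0 at 36 h, and 0.0634 and 0.128 at 36 h with CPA. Aldh1a2 in NIP stood at 1.14 and 0.361 CPM at 0 h, 1.81 and 1.21 at 12 h, 0.48 and 0.335 at 12 h with CPA, 1.07 and 0.871 at 36 h, and 0.635 and 0.0673 at 36 h with CPA. NIP exceeded NIL without overlap in all conditions but 36 h with CPA, where NIP replicate 2 lay within the NIL values. These levels were the lowest of the set in NIL, with 0 to 6 counts over a group, against 16 to 81 in NIP.

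The line difference of Aldh1a2 was 2.997 ± 0.89 (log2) at 0 h and 3.14 ± 0.82 at 12 h, with adjusted p of 0.0453 and 0.0262. At 36 h untreated it also passed (adjusted p = 0.00506), and since NIL held 0 counts against 28 in NIP, the level in NIP was at least 11.7-fold higher, taking 3 counts over the group as the floor. With CPA the ratio of summed levels was 5.36 at 12 h (95% interval 1.56 to 28.4, counting error only, 3 counts in NIL) and 4.9 at 36 h (1.15 to 43.9, 2 counts in NIL), and edgeR's test passed neither. The averaged line difference was 3.53 ± 0.47, with an adjusted p of 5.44e-05 that passed in all 27 alternative fits, though its size depends on how the 0 counts are handled. The 0 h call lies near the threshold and was lost in 15 of 20 leave-outs and with DESeq2 (adjusted p up to 0.454 in the leave-outs). The 12 h call was lost on leaving out any of its 4 libraries (0.0572 to 0.186), and the 36 h call on leaving out NIL 36 h untreated replicate 1 (0.0664). Within NIP, CPA changed Aldh1a2 by -1.88 ± 0.70 at 12 h and -1.33 ± 0.75 at 36 h, with no overlap of treated and untreated libraries at either time. Neither passed (adjusted p = 0.179 and 0.493), and with the block the first did, at -1.86 and 0.0326. In NIL the counts over a group without and with CPA were 6 and 3 at 12 h and 0 and 2 at 36 h, too few for a comparison.

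**Figure D3:**
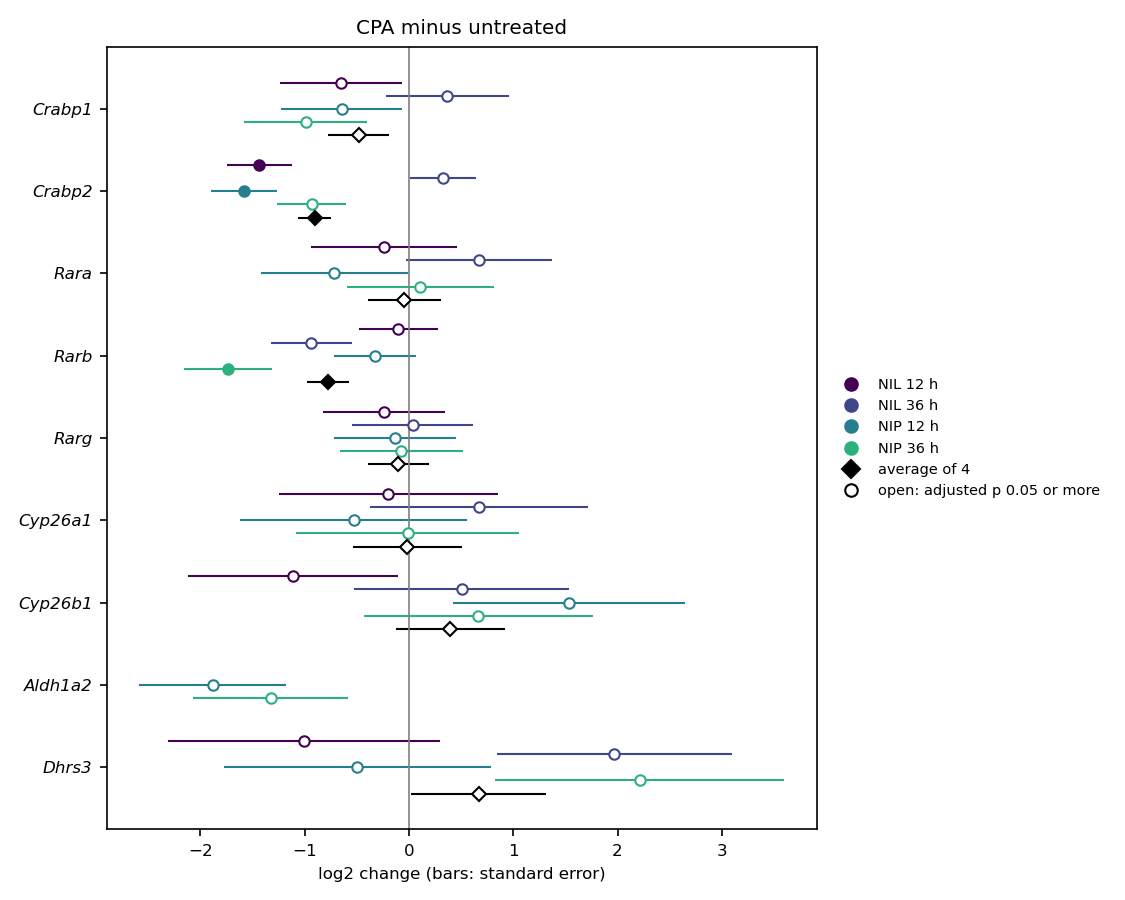
Change with CPA for each gene on the log2 scale with its standard error, in each line and time (circles) and averaged over the 4 (diamonds); filled symbols passed an adjusted p of 0.05. Crabp2 is filled at 12 h in both lines and Rarb at 36 h in NIP; Aldh1a2 is drawn for NIP alone because NIL held 0 to 6 counts over a group.

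Over both lines and times CPA lowered 2 of 9 members, Crabp2 and Rarb, and raised 0, where 21.1% of all genes passed the average. The median member change was -0.10, against 0.00159 over all genes. Rara, Rarg, Cyp26a1, Cyp26b1 and Dhrs3 had averaged changes between -0.10 and 0.67, none of which passed, and their standard errors ran from 0.29 to 0.65. Crabp1 was lower with CPA in 7 of 8 within-replicate pairs, and its averaged change did not pass either. None of the 45 member tests of a difference between CPA responses, or between the lines' changes over time, passed edgeR's test. At an unadjusted p under 0.05 there were 6, and DESeq2 called 0. Of all genes, 0% and 0% passed for the difference between lines in the CPA response at 12 h and at 36 h, 0.00676% and 0.0135% for the difference between the 36 h and 12 h responses in NIL and in NIP, and 0% for the difference between lines from 0 h to 36 h. With the block 0 of the 45 passed as well, while the shares of all genes in these 5 comparisons became 0%, 0.128%, 0.108%, 1.09% and 0.595%. Differences of this kind were thus not detected for the members.

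**Figure D4:**
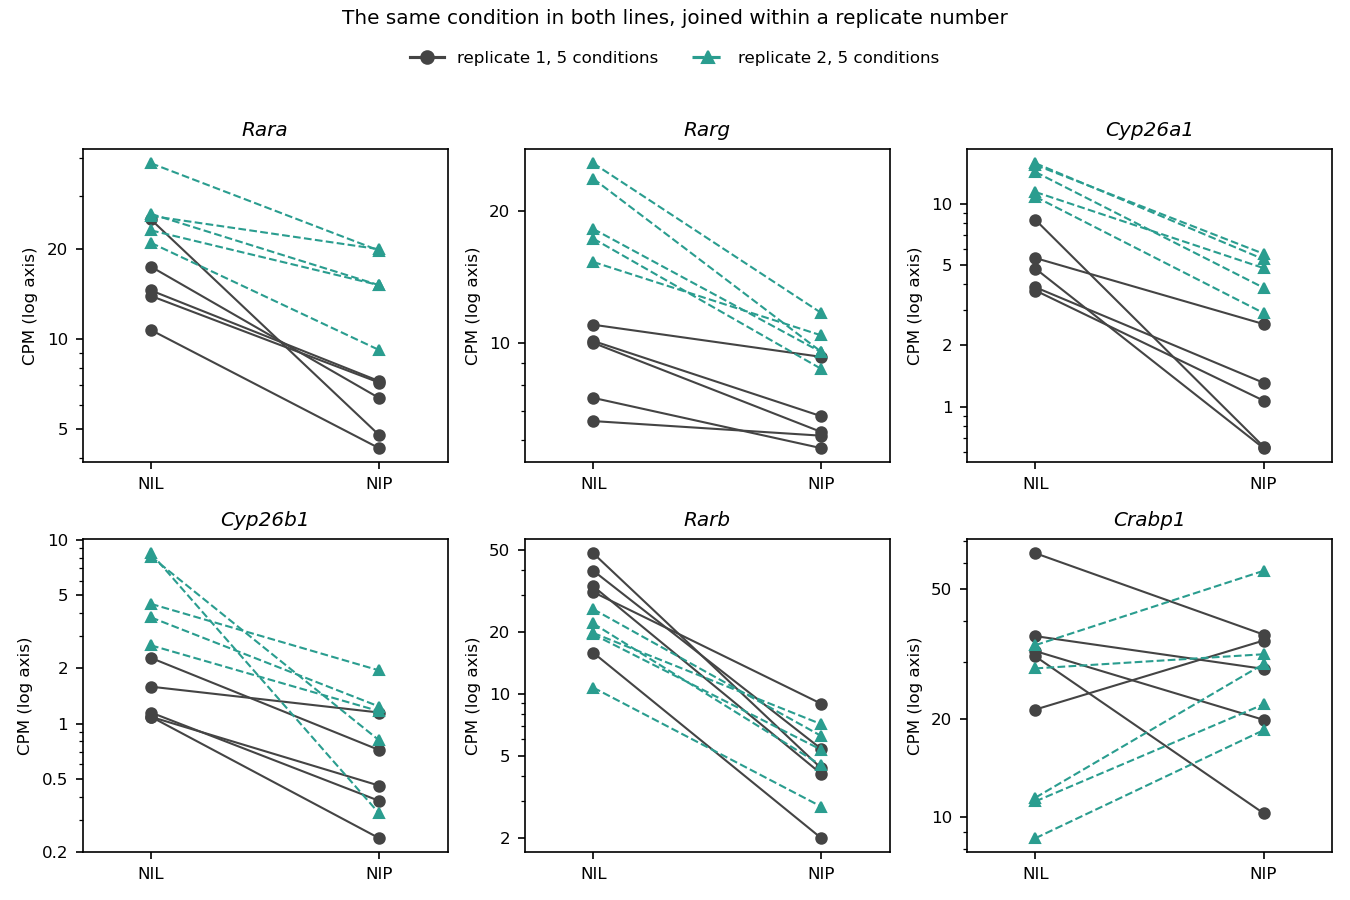
Levels of 6 genes in CPM (log axes), with each condition of NIL joined to the same condition of NIP within a replicate number (circles and solid lines, replicate 1; triangles and dashed lines, replicate 2). All 10 lines fall from NIL to NIP for Rara, Rarg, Cyp26a1, Cyp26b1 and Rarb, whereas for Crabp1 6 rise and 4 fall.

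Several members also differed between the replicate numbers. In the fit with the number as a block, replicate 2 was higher than replicate 1 by 1.05 ± 0.12 (log2) for Rara, 0.86 ± 0.12 for Rarg, 1.63 ± 0.17 for Cyp26a1, 1.45 ± 0.30 for Cyp26b1 and 1.48 ± 0.37 for Dhrs3 (adjusted p from 2.71e-06 to 0.00369). Rarb was lower in replicate 2, at -0.37 ± 0.14 (adjusted p = 0.0437), and Crabp1, Crabp2 and Aldh1a2 did not pass (0.123 to 0.945). Of all genes, 49.2% passed between the replicate numbers, so 6 of 9 members lie not far above that share. Some marker lists of other cells moved the same way as the first 5 genes. Replicate 2 was higher for 11 of 12 pluripotent stem cell markers (median 2.88), 13 of 14 endoderm and endothelium markers (1.64) and 10 of 10 proliferation markers (1.41), while 10 of 10 neuron markers were lower (-0.51). Higher too were 4 of 10 tested mesenchyme, 4 of 9 neural progenitor and 3 of 5 glia and neural crest markers. In each of these lists 1 marker was lower.

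The same marker lists differed between the lines. On average over conditions NIP was lower for 10 of 12 pluripotent markers (median -3.92), 14 of 14 endoderm and endothelium markers (-2.17), 10 of 10 proliferation markers (-2.14) and 7 of 10 tested mesenchyme markers (-2.6), and higher for 4 of 10 neuron markers. Of all genes 49.5% passed that comparison. The summed pluripotent markers, led by Lin28a, ran in NIL from 152 to 311 CPM in replicate 1 and 463 to 799 in replicate 2, and in NIP from 99.3 to 219 and from 177 to 295. Much of these sums can come from 1 gene. Lin28a held 268 of the 311 CPM in NIL 0 h replicate 1, and Klf4 381 of the 799 in NIL 36 h CPA replicate 2. Pou5f1 stood at 2.52 and 63.8 CPM in these libraries. The summed endoderm and endothelium markers, led by Col4a1, ran from 1604 to 8799 and 5621 to 18470 CPM in NIL, and from 229 to 538 and 1665 to 4653 in NIP. The summed proliferation markers, led by Top2a, ran from 234 to 453 and 600 to 705 CPM in NIL, and from 71.8 to 128 and 131 to 208 in NIP. Up to 4 of the 12 pluripotent markers were at 0 in a NIP library, and none of the endoderm or proliferation markers was at 0 in any library. The part of these cells in the line differences of Rara, Rarg, Cyp26a1, Cyp26b1 and Dhrs3 was not tested. In bulk samples fewer cells of a type and less RNA per cell cannot be told apart. Between the replicates, Rarb differed by -0.37 ± 0.14 (log2) and Crabp2 by -0.01 ± 0.13. Rarb was lower in NIP in all 5 conditions within each replicate number. Whether these cells have a part in the line differences of Rarb, Crabp2 and Aldh1a2 was not tested either.

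On average with CPA 7 of 10 neuron markers were lower (median -0.69), as Crabp2 and Rarb were, where 21.1% of all genes passed. Single conditions did not all go together. In NIL the summed neuron markers were lower with CPA at both times. Crabp2 in NIL stood at 4.05 and 2.63 CPM at 36 h and at 4.5 and 3.98 with CPA. Rarb in NIL stood at 39.5 and 19.4 CPM at 12 h and at 33.2 and 21.9 with CPA. The summed neuron markers, led by Tubb3, ran from 6060 to 9560 CPM in untreated NIL at 12 and 36 h and from 2600 to 5620 with CPA, and in NIP from 8250 to 11700 and from 5370 to 7810. The summed endoderm and endothelium markers were higher with CPA in all 4 NIL pairs: in replicate 1 from 2470 to 2984 CPM at 12 h and 3050 to 8799 at 36 h, and in replicate 2 from 6313 to 9136 and 10880 to 18470. In NIP they went from 483.5 to 282 and 340 to 229 CPM in replicate 1, and from 1665 to 1956 and 1952 to 4653 in replicate 2. Of these 14 markers 0 passed the averaged CPA comparison with edgeR (median 0.56), 0 had an unadjusted p under 0.05 and DESeq2 called 0. With the block 2 of them rose, where 38.9% of all genes passed. Of 8 markers of stress in the endoplasmic reticulum, 8 rose with CPA (median 2.48). From 0 h to 36 h untreated, 0 of 10 neuron markers passed edgeR's test, 0 had an unadjusted p under 0.05 and DESeq2 called 0. Of 9 tested neural progenitor markers 2 fell (median -0.76), where 1.47% of all genes passed. The summed progenitor markers, led by Vim, ran from 754 to 928 CPM in NIL at 0 h and 528 to 856 in untreated NIL at 12 and 36 h, and in NIP from 1360 to 1420 and from 652 to 1140. Whether a change in the mix of cells has a part in the falls of Crabp2 and Rarb, or in the level of Dhrs3 in NIL with CPA at 36 h, was not tested.

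Of 67 other genes of the retinoid pathway, in 5 lists, 54 were tested. Between the lines 9 were higher and 23 lower in NIP on average, or 32 of 54, where 49.5% of all genes passed. The median difference of the 54 was -0.25. With CPA 5 rose and 6 fell (median -0.04), where 21.1% of all genes passed. From 0 h to 36 h untreated 1 fell and 0 rose, where 1.47% of all genes passed. The block raised the CPA count from 11 to 25 and the time count from 1 to 8, while the shares of all genes rose to 38.9% and 8.98%.

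**Figure D5:**
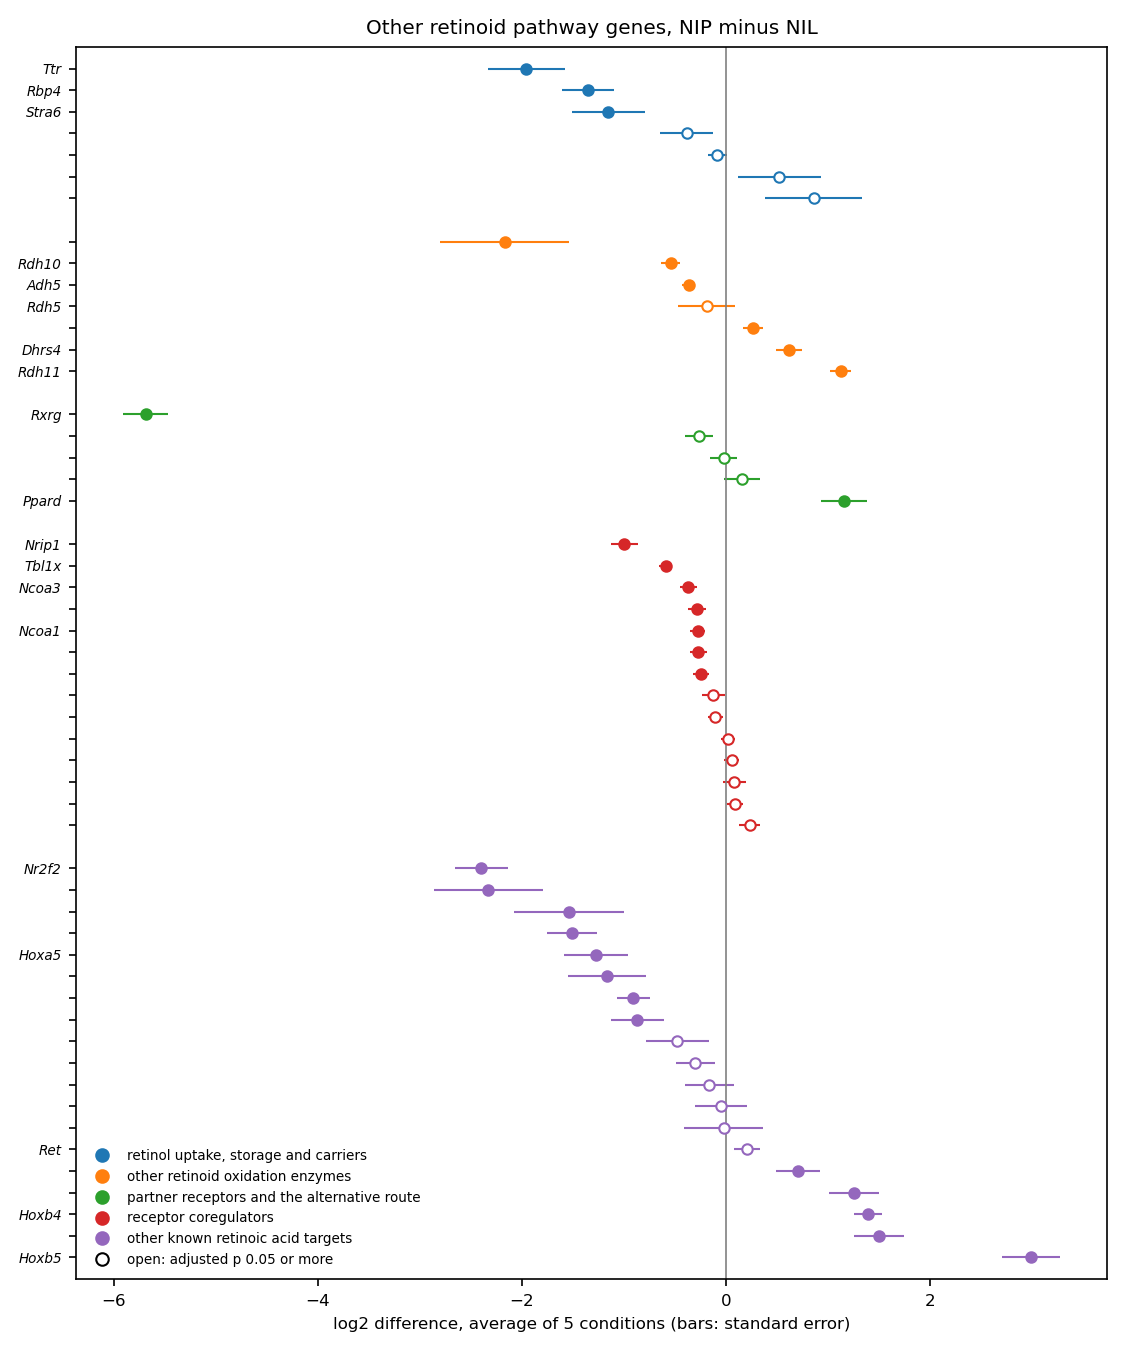
Averaged difference between the lines, NIP minus NIL on the log2 scale with its standard error, for 52 of the 54 tested genes of 5 retinoid lists (colours), with names for genes whose values the text gives by rule; filled symbols passed an adjusted p of 0.05. Rxrg lies far to the left at -5.69, and Hoxb5 and Hoxb4 lie to the right.

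Among partner receptors, Rxrg, a retinoid X receptor that pairs with the retinoic acid receptors, had the largest difference of all 54. Rxrg in NIL stood, in replicates 1 and 2, at 297 and 226 CPM at 0 h, 234 and 193 at 12 h, 143 and 118 at 12 h with CPA, 181 and 134 at 36 h, and 106 and 52.8 at 36 h with CPA. Rxrg in NIP stood at 4.94 and 5.5 CPM at 0 h, 7.23 and 4.04 at 12 h, 0.432 and 1.55 at 12 h with CPA, 3.57 and 4.04 at 36 h, and 2.58 and 1.75 at 36 h with CPA. The lines were far apart in all 5 conditions, and CPA libraries lay below untreated ones at both times in both lines. The averaged line difference was -5.69 ± 0.22 (adjusted p = 3.9e-10) and the averaged CPA change was -1.25 ± 0.22 (0.00146). Ppard, a receptor that can be reached by retinoic acid through Fabp5, was higher in NIP by 1.16 ± 0.22 (0.000806). Of the 5 genes in this list 1 was higher and 1 lower, where 49.5% of all genes passed, and Rxra, Rxrb and Fabp5 did not pass.

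Of 20 tested target genes, 5 were higher and 9 lower in NIP, where 49.5% of all genes passed, so known targets did not move one way. Hoxb5, a Hox gene of the posterior hindbrain and anterior cord, was higher in NIP by 2.99 ± 0.29 (adjusted p = 1.69e-06), and Hoxb4 by 1.39 ± 0.14 (1.94e-06). In untreated NIP, Hoxb5 stood, in replicates 1 and 2, at 19.7 and 17.1 CPM at 0 h, 33 and 16.9 at 12 h and 53.5 and 24.5 at 36 h, against 2.06 to 3.02 in untreated NIL. Nr2f2, an orphan receptor, was lower by 2.40 ± 0.26 (5.67e-06) in NIP. With CPA 4 targets fell, among them the growth factor receptor gene Ret by 0.78 ± 0.14, Hoxa5 by 1.59 ± 0.35 and Hoxb4 by 0.57 ± 0.15 (adjusted p from 0.00225 to 0.0155). Bhlhe40, named after its value was seen, was the 1 target that rose, by 1.16 ± 0.35 (0.0314). Of all genes 21.1% passed the averaged CPA comparison. The calls of Ret and Hoxb4 were lost with library totals only (0.0524 and 0.117), and that of Hoxb4 without both libraries of high Rn45s share (0.0992). By line and time, Hoxb4 passed in NIP alone. Its change there was -1.45 ± 0.295 at 12 h and -1.21 ± 0.29 at 36 h (adjusted p = 0.014 and 0.0497). In these comparisons 4.71% and 2.33% of all genes passed. The line difference in its CPA response had an unadjusted p under 0.05 at both times but passed edgeR's test at neither.

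Of genes with the 5-base repeat in a RefSeq start region, 31 in all, 12 symbols were in the count tables and 5 were tested, namely Rarb, Cyp26a1, Prokr2, Syndig1 and Blvrb. The last 3 were named after their values were seen. Prokr2 and Syndig1 were lower in NIP, at -0.98 ± 0.27 and -3.72 ± 0.16 (adjusted p = 0.00907 and 8.41e-10), and Blvrb did not pass, at -0.12 ± 0.34. With only 5 genes tested, 4 of them lower where 49.5% of all genes passed, the count is a description of these genes.

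Where 49.5% of all genes passed, genes of retinol uptake and carriage included 3 of 8 tested that were lower in NIP and 0 higher. They were Rbp4 at -1.35 ± 0.25 (adjusted p = 0.000636) and Ttr at -1.96 ± 0.38 (0.000808), which carry retinol in blood and are made by endoderm derivatives, and Stra6 at -1.15 ± 0.36 (0.016), a retinol channel. The endoderm markers given above were lower in NIP too, and their part was not tested. The Stra6 call was lost without both libraries of high Rn45s share, at -1.06 and 0.0538. With CPA Rbp4 rose by 1.04 ± 0.28 (0.0196), a call lost without both libraries of high Rn45s share. That call was lost on leaving out NIP 12 h untreated replicate 1 (0.0519), NIP 12 h CPA replicate 2 (0.0583) or NIP 36 h CPA replicate 2 (0.0566).

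Of 7 tested enzymes of retinoid oxidation, 3 were higher and 3 lower in NIP, where 49.5% of all genes passed. Rdh11, a retinal reductase, was higher by 1.12 ± 0.10 (adjusted p = 9.84e-07), with 21.6 to 35.2 CPM in NIL and 39.8 to 86.3 in NIP. Dhrs4 was higher by 0.62 ± 0.13 (0.00157). Rdh10, the main retinol dehydrogenase of the embryo, and Adh5 were lower by 0.54 ± 0.09 (0.000274) and 0.37 ± 0.06 (0.000323). With CPA Rdh5 rose by 1.05 ± 0.31 (0.0273), at levels of at most 1.12 CPM. That call was lost in 9 of 20 leave-outs, with library totals only and without both libraries of high Rn45s share.

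Of 14 receptor coregulators, 7 were lower in NIP and 0 higher, with a median of -0.18, where 49.5% of all genes passed. Nrip1, a corepressor that is itself a target of the receptors, was lower by 0.99 ± 0.13 (adjusted p = 3.92e-05), Tbl1x by 0.59 ± 0.06 (4.28e-06), Ncoa3 by 0.37 ± 0.08 (0.00205) and Ncoa1 by 0.28 ± 0.07 (0.00712). On average with CPA Nrip1 rose by 0.52 ± 0.15 (0.023) and Tbl1x by 0.36 ± 0.07 (0.00252), and 0 fell, where 21.1% of all genes passed. The Nrip1 call with CPA was lost in 4 of 20 leave-outs (up to 0.0744). That call was also lost with library totals only. The largest move of Nrip1 was in NIP at 12 h, from 40.3 and 36 CPM untreated to 133 and 118 with CPA. In NIP at 36 h it went from 43.6 and 45.7 CPM to 56.9 and 66.4. Nrip1 did not rise throughout NIL. There it went from 162 and 91.5 CPM to 156 and 135 at 12 h. At 36 h both NIL replicates were lower with CPA, from 100 and 72.8 CPM to 87 and 54.8.

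Members were set against each other over the 10 group means of log2 CPM, which share libraries and depth and are given as a description. Rara followed Cyp26a1 with a Pearson r of 0.957 and Rarg with 0.877, and Rarb followed Cyp26a1 with 0.849. Crabp1 and Crabp2 followed each other with 0.825, and Aldh1a2 ran against Cyp26b1 with -0.89. Among 11914 or 11915 genes, those most like each member were Dpf3 (0.994), Ndst4 (0.993) and Sema3f (0.987) for Rarb, Lrp4 (0.985), 1500009L16Rik (0.984) and Gsta4 (0.983) for Rara, and Fam102a (0.968), Tbc1d24 (0.966) and 4632428N05Rik (0.961) for Rarg. Cyp26a1 was nearest to Cenpa (0.988), 5730559C18Rik (0.985) and Slc38a4 (0.984), and Cyp26b1 to 1700017B05Rik (0.965), Trip6 (0.962) and Haus5 (0.96). Crabp1 was nearest to Uqcrc2 (0.92), Lin28a (0.915) and Atpif1 (0.91), and Crabp2 to Psma6 (0.962), Snrpe (0.959) and Thoc3 (0.956). Aldh1a2 was nearest to Taok3 (0.963), Nmt2 (0.948) and Sox1 (0.943), and Dhrs3 to Manba (0.941), Fam117a (0.941) and Tax1bp3 (0.936).

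Per kilobase of exon the mean levels over all libraries ran in the order Crabp1, Crabp2 (6.98 CPM per kilobase), Rarb (4.65), Rara (3.79), Cyp26a1 (3.42), Rarg (3.38), Cyp26b1 (0.404), Dhrs3 (0.359) and Aldh1a2 (0.196). In NIL alone the order began with Crabp1 (34.7), Crabp2 (9.09) and Rarb (7.81). In NIP alone Rarb, at 1.495, came after Crabp1 (36), Crabp2 (4.86), Rara (2.54), Rarg (2.48) and Cyp26a1 (1.605). Which neighbours in these orders differ beyond their spread was not tested. Exon lengths are of GENCODE M21 models and may differ from those the authors counted over.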

How the data were processed

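The deposited tables hold raw read counts per gene symbol, which the authors made for each of 20 libraries of ribosome-depleted total RNA, and no other unit was used. Tools listed in the submitters' processing notes are HTSeq 0.6.1p1, Picard, TopHat2 2.1.1 and Bowtie2 2.3.2, and the build is GRCm38 (mm10). The annotation, strand setting and filters are not given in the sources used here. The 5 summary lines of each table were left out.

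Counts were fitted in R 4.3.3 with edgeR 4.0.16 (filterByExpr by group, TMM factors, robust quasi-likelihood test, 10 group means in 1 fit with 10 residual degrees of freedom), and p-values were adjusted by the Benjamini-Hochberg method over 14792 genes in each of 21 comparisons. The biological coefficient of variation was 27.5%, and 15.7% with the replicate number as a block. Same-numbered libraries deviated together from their group means in all 45 pairs of groups (r from 0.243 to 0.763, median 0.467), so the numbers pair the libraries, and blocked values stand beside results they change. Replicates of a group differed by far more than sampling noise.

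The members and lists were chosen with earlier results of these data known. Besides the members, the text names up to 4 genes per pathway list and averaged comparison with the smallest p among those that passed, the highest gene of each marker list, 5 genes that check the labels, and the 3 genes most like each member (prior count 2, mean log2 CPM of at least 1). Some genes that this rule picks are not reported here, though list counts include them. The scripts were tested on simulated counts. Alternatives were the replicate block, DESeq2 1.42.0 (its size factors in edgeR, and its Wald test), library totals only, no filter, Rn45s removed, both libraries of high Rn45s share left out, 1 line at a time, and each library left out in turn. Counting intervals are exact at 95% and cover counting error only.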

Additional observations from a re-analysis of the deposited data

How the results depend on the processing

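Of 189 tests of a member, 26 passed; 11 of these passed in every alternative and 13 in every leave-out, and no called value changed sign. The replicate block raised the calls from 7 to 18 for line untreated, 3 to 9 for line with CPA and 3 to 6 for CPA, and those of other pathway genes from 11 to 25 for the CPA average and 1 to 8 for the time average, and it ended no member call. The block raised the share of all genes as well, to between 26.3% and 28.8% for line untreated, 26.7% and 37.6% for line with CPA and 7.94% to 18.2% for CPA. Library totals only, which shift the median of all genes by up to 0.414 (log2), gave 0 CPA calls, 1 of 2 time calls, 6 pathway CPA calls and 0 pathway time calls. Without both libraries of high Rn45s share there were 3 line untreated, 1 CPA, 1 time and 7 of 11 averaged calls, with 6 pathway CPA and 0 pathway time calls. Fitting 1 line at a time gave 1 time call, and DESeq2 gave 3 pathway time calls. The causes of these shifts were not tested. Leaving out 1 library gave 1 to 3 CPA calls, 2 to 5 line calls with CPA, 0 to 2 time calls, 7 to 16 pathway CPA calls and 0 to 1 pathway time calls. With 2 libraries a group, a lone remaining library is assumed to vary like the other groups. Aldh1a2 and Dhrs3 are limited by depth, since 1 count is worth 0.0319 to 0.128 CPM.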
